A study of Rattus norvegicus with 68 samples.

Results

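The genes described here encode the AP-1 and immediate early transcription factors Fos, Fosb, Fosl1, Fosl2, Jun, Junb, Jund, Atf3 and Egr1. They were chosen by symbol from the annotation of the array and form 9 of the 14217 genes that a probe set with a single gene name could stand for. The 9 genes have 15 probe sets, and for each gene the probe set with the highest mean signal over all arrays was used. The symbols come from the annotation, but the members were chosen with earlier results of these data known. The choice of probe set used that mean and no difference between groups. All 9 members were tested without a filter on low signals.

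AP-1 is a dimer of leucine zipper proteins in which a Fos or Atf protein pairs with a Jun protein and binds short DNA elements in promoters and enhancers. Several of its genes belong to the immediate early class, whose mRNA rises within minutes of growth factor, stress or wound signals through MAP kinases and falls again soon after, because the mRNA is unstable. Fosl1 differs in being induced later and held longer, and is known in squamous and migrating epithelium, where AP-1 also acts on genes of cornification. Egr1 is a zinc finger factor outside AP-1 that answers many of the same signals.

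The animals were male F344/CrlBR rats, 8 weeks old, which inhaled formaldehyde over the whole body on 5 days of each week, for 6 h a day. Each of 68 Affymetrix Rat230_2 arrays held the RNA of 1 animal, and 17 groups of 4 animals were defined by dose and time. Doses of 15, 10, 6, 2 and 0.7 ppm were studied at 5 d, 4 w and 13 w, and 0 ppm at 5 d and 13 w. The reference was 0 ppm at 5 d and 13 w. No 0 ppm array of 4 w was analysed here, so the 0.7 ppm animals, themselves exposed, were the reference at 4 w. All groups share the tissue treatment: maxilloturbinate and olfactory mucosa were removed from nose level II, and proteases then released the remaining lining, mainly transitional with some respiratory epithelium. That release of living cells is common to every sample, and the labels do not say how long the last exposure lay before it. Nothing in the labels pools or pairs animals, and each animal counted as a replicate. The titles of the 0 ppm samples carry other codes than those of the exposed samples, and whatever the codes mean cannot be told apart from dose. The codes also differ between 0 ppm of 5 d and of 13 w, where they cannot be told apart from time.

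Of the 9 genes, 6 have a promoter in the RefSeq table of build GRCr8, which gives 250 bases before and 50 after the start of the gene. The promoters of Fosl1, whose log2 signal changed most with dose, and of Jund, the member that fell, are shown. The letters near the start of both can then be compared. Capitals mark motifs found by a search of both strands for the AP-1 element TGACTCA, the cAMP response element TGACGTCA, the Egr1 site GCGTGGGCG and the serum response CArG box. The motifs searched do not overlap in these promoters. Fosl1 lies at chr1:212183635-212183934 on the plus strand, and Jund at chr16:18769722-18770021 on the minus strand.
Fosl1: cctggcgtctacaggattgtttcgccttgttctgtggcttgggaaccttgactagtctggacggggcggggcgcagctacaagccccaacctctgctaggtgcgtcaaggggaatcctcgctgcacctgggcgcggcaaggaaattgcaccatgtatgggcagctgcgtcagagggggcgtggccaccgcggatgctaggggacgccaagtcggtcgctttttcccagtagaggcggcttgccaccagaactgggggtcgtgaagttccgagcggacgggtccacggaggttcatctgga
Jund: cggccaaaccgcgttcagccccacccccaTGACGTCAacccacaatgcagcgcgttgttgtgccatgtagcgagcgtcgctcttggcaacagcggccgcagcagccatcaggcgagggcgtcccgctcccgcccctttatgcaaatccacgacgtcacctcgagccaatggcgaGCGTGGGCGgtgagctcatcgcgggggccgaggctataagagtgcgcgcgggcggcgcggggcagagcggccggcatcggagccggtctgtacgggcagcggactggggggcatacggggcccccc
The Jund promoter held a cAMP response element from -221 to -214 and an Egr1 site from -76 to -68, counted from the start of the gene. None of the searched motifs was found in the window of Fosl1, Fosb, Fosl2 or Junb. Egr1 held 2 CArG boxes, the element that serum response factor binds. Over 33469 rat promoters of the same length, TGACTCA was present in 4.63%, TGACGTCA in 1.83%, the CArG box in 1.64% and GCGTGGGCG in 0.544%. These shares are given as background only, and a match of letters in this window is a description and says nothing of binding.

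Fosl1 rose in a graded way with formaldehyde, from 6 ppm upwards and to about the same level after 5 d, 4 w and 13 w. Atf3, Fosl2 and Fosb rose at 15 ppm at all 3 times, and Junb rose at 15 ppm after 5 d and 4 w. Leaving out single animals ended the calls of Fosb at 5 d and 4 w, Fosl2 at 13 w and Junb at 4 w. Jund fell slightly at 15 ppm after 4 w and 13 w. Fos, Jun and Egr1 had high signals in every group, the unexposed ones included, and were called in none of the comparisons. All values below are log2 signals, and a change is a log2 difference between 2 groups of 4 animals with its SE, estimated in limma. A gene was called at a Benjamini-Hochberg adjusted p under 0.05 over all 14217 genes. Doses of a time share their reference animals, so their changes are not independent of each other.

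**Figure D1:**
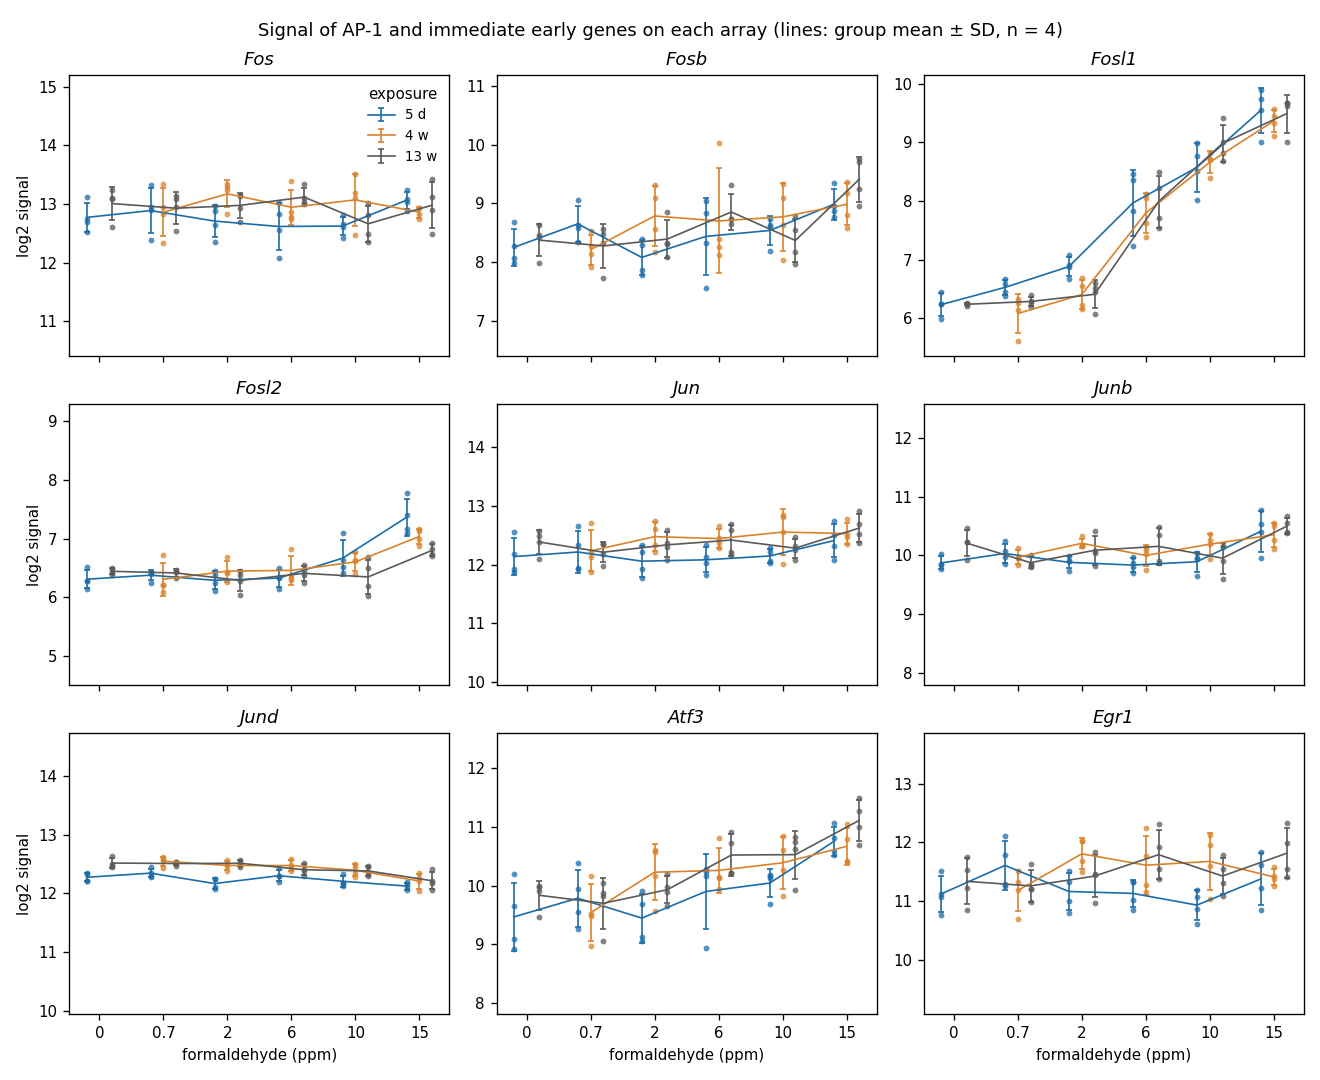
Log2 signal (y axis, the same span in every panel) of each of the 9 genes against formaldehyde dose in ppm (x axis, equally spaced categories). Points are single animals, colours are 5 d, 4 w and 13 w, and lines with bars are group means ± SD (n = 4). Fosl1 climbs from about 6 to above 9, Atf3 and Fosb climb less, and the group means of Fos, Jun and Egr1 span 0.56, 0.56 and 0.88 units.

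More members were called at 15 ppm than at the lower doses, and the same held for all genes. At 5 d, 0 of 9 were called at 0.7 ppm and 0 at 2 ppm, where limma called 0% and 0.0281% of all genes, and 0 and 1 members had an unadjusted p under 0.05. Fosl1 was the 1 member called at 6 ppm, where 8.83% of all genes were called, and again at 10 ppm with 15.5%. A count of 1 in 9 is near these shares. At 15 ppm 5 members were called higher and 0 lower, beside 37.7% of all genes called, 18.3% higher and 19.5% lower. The median change of the 9 members there was 0.54, against -0.01 for all genes.

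At 13 w, 0 members were called at 0.7 ppm and 0 at 2 ppm, beside 0% and 0.00703% of all genes, with 1 and 0 members at an unadjusted p under 0.05. Fosl1 was again the 1 member called at 6 ppm, beside 12.2% of all genes, and at 10 ppm, beside 26.4%. At 15 ppm 4 members were higher and 1 lower, beside 44.2% of all genes called, 23.5% higher and 20.6% lower. The count of 5 called in 9 is near the 44.2%. The median member change was 0.36 against -0.02 for all genes. At 4 w, 0 members were called at 2 ppm, beside 0.0211% of all genes and with 2 members at an unadjusted p under 0.05. Fosl1 was called at 6 ppm, beside 3.28% of all genes, and Fosl1 and Atf3 at 10 ppm, beside 14.8%. At 15 ppm 5 members were higher and 1 lower, beside 37.4% of all genes called, 21.3% higher and 16.1% lower. Their median there was 0.38, against 0.01 for all genes.

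**Figure D2:**
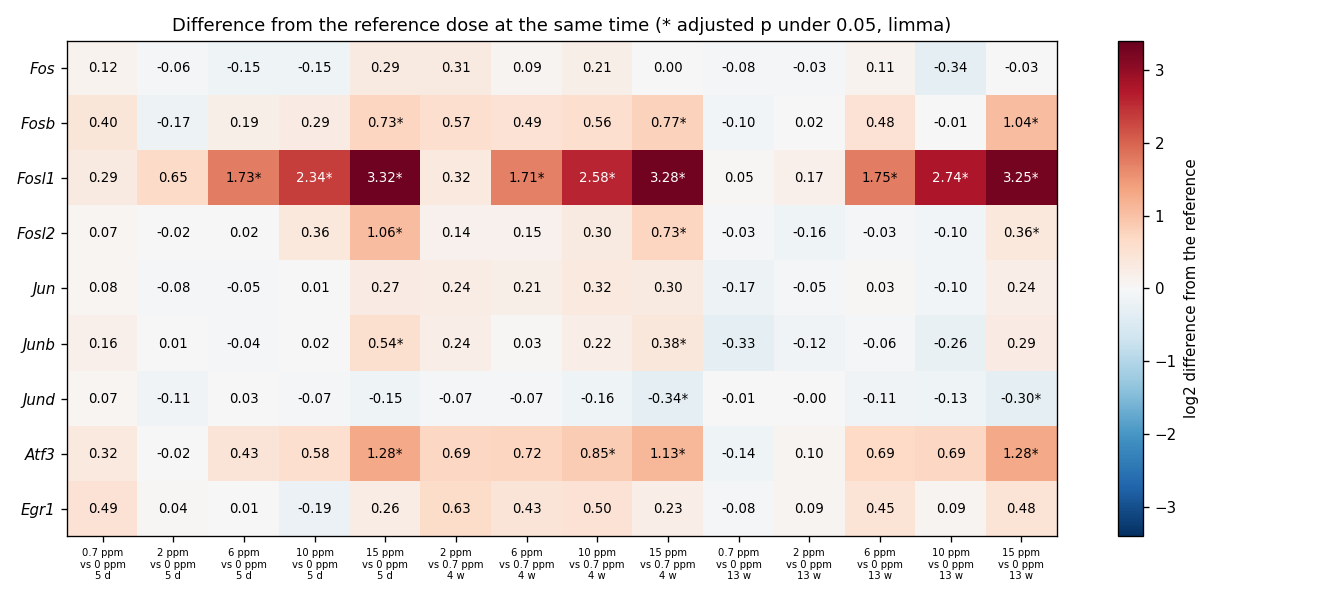
Log2 difference from the reference dose of the same time for the 9 genes (rows) in 14 comparisons (columns). Colour and number give the difference, and a star marks an adjusted p under 0.05 in limma. The row of Fosl1 is called from 6 ppm at each time, and the rows of Fos, Jun and Egr1 hold no star.

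Fosl1, the Fos family member known for its role in keratinocyte wound responses, had signals of 6.25, 6.24, 6.45 and 5.98 in the 4 rats at 0 ppm of 5 d. They were 6.59, 6.68, 6.45 and 6.39 at 0.7 ppm, and 7.08, 6.87, 6.67 and 6.90 at 2 ppm. The 2 ppm animals all lay above the 0 ppm animals, yet the change of 0.65 ± 0.21 was not called (adjusted p = 0.569), and that at 0.7 ppm was 0.29 ± 0.21 with overlapping animals. At 6 ppm the values were 7.22, 8.46, 7.82 and 8.36, at 10 ppm 8.02, 8.51, 8.98 and 8.77. The animals at 15 ppm had 9.73, 9.89, 9.55 and 9.01. All animals at 6, 10 and 15 ppm lay above all 0 ppm animals, with changes of 1.73 ± 0.21 (adjusted p = 7.69e-08), 2.34 ± 0.21 (5.07e-12) and 3.32 ± 0.21 (4.73e-19). The change at 15 ppm corresponds to a 9.95-fold higher linear signal.

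After 13 w the unexposed animals had Fosl1 signals of 6.25, 6.21, 6.25 and 6.24, a narrow range. The 6 ppm animals had 8.49, 8.22, 7.53 and 7.71, and the 10 ppm animals 9.01, 9.41, 8.68 and 8.82. At 15 ppm the signals were 9.01, 9.61, 9.66 and 9.66. All 3 groups again lay above the reference, and the changes were 1.75 ± 0.21 (adjusted p = 2.53e-08), 2.74 ± 0.21 (7.06e-15) and 3.25 ± 0.21 (1.11e-18). At 0.7 and 2 ppm the changes were 0.05 ± 0.21 and 0.17 ± 0.21 (adjusted p = 1 and 0.77), with overlapping animals.

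At 4 w Fosl1 had 6.26, 5.61, 6.32 and 6.13 in the 0.7 ppm reference and 6.22, 6.16, 6.54 and 6.69 at 2 ppm, which overlapped. The signals were 7.39, 8.12, 7.62 and 8.04 at 6 ppm and 8.39, 8.72, 8.82 and 8.71 at 10 ppm. At 15 ppm they were 9.45, 9.11, 9.56 and 9.33. These 3 groups lay wholly above the reference, by 1.71 ± 0.21, 2.58 ± 0.21 and 3.28 ± 0.21 (adjusted p = 2.26e-07, 1.16e-13 and 2.52e-18).

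Ordered by mean, the 17 groups of Fosl1 ran from 6.08 at 0.7 ppm of 4 w to 9.55 at 15 ppm of 5 d. Only 1 of the 16 neighbouring pairs in that order did not overlap, namely 2 ppm of 5 d (mean 6.88) and 6 ppm of 4 w (7.79). The groups of 6, 10 and 15 ppm followed each other in that order with the 3 times of each dose side by side. Group means of the other members spanned less, and 0 of 16 neighbouring pairs were separate for each. Atf3 ran from 9.44 at 2 ppm of 5 d to 11.1 at 15 ppm of 13 w, and Fosb from 8.08 to 9.41 at the same 2 groups. Fosl2 ran from 6.29 at 2 ppm of 13 w to 7.36 at 15 ppm of 5 d. Junb ran from 9.84 at 6 ppm of 5 d, Jun from 12.1 at 2 ppm of 5 d and Egr1 from 10.9 at 10 ppm of 5 d, each with its highest mean, 10.5, 12.6 and 11.8, at 15 ppm of 13 w. Jund ran from 12.1 at 15 ppm of 5 d to 12.6 at 0.7 ppm of 4 w. Levels are not compared between genes here, since probe sets differ in their response.

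Between neighbouring doses, Fosl1 was called at 15 against 10 ppm after 5 d (0.98 ± 0.21, adjusted p = 5.53e-04) and at 10 against 6 ppm after 13 w (0.99 ± 0.21, adjusted p = 0.00673). At 4 w both steps were called, by 0.87 ± 0.21 and 0.70 ± 0.21 (adjusted p = 0.0276 and 0.031). The first of these 4 w calls was lost without animals 303, 309, 333, 336 or 338 (0.73 to 0.85, adjusted p up to 0.182). The second was lost without animals 331, 362, 368 or 369 (0.62 to 0.72, adjusted p up to 0.158). The step from 6 to 10 ppm at 5 d (0.61 ± 0.21) and that from 10 to 15 ppm at 13 w (0.51 ± 0.21) were not called. The latter passed without animal 375 (0.67, adjusted p = 0.0315) or animal 346 (0.65, 0.0467), and the former without animal 324 (0.79, 0.0384) or animal 298 (0.77, 0.0423). With only the 2 groups of a step in the fit, none of the 4 called Fosl1 steps was called (adjusted p = 0.0637 and 0.103 at 5 d and 13 w, 0.163 and 0.0632 at 4 w). Median centring and cyclic loess ended the call of the step from 6 to 10 ppm at 4 w (0.83 and 0.82, adjusted p = 0.0528 and 0.0517). With array weights the steps at 5 d and 13 w that were not called passed (0.60 and 0.56, adjusted p = 0.0474 and 0.0158).

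The numbers of members called between neighbouring doses read as follows against all genes. From 6 to 10 ppm 0, 1 and 1 members were called at 5 d, 4 w and 13 w, beside 1.02%, 0.577% and 3.98% of all genes, and 2 members had an unadjusted p under 0.05 at 5 d. From 10 to 15 ppm 3, 2 and 3 members were called, all higher, beside 15.2%, 6.29% and 12.6% of all genes called and 7.18%, 5.11% and 8.55% called higher. Apart from Fosl1, these were Fosl2 at all 3 times, Junb at 5 d and 13 w, and Fosb at 13 w. The Fosl2 steps were 0.70 ± 0.13, 0.43 ± 0.13 and 0.45 ± 0.13 (adjusted p = 1.31e-04, 0.041 and 0.0179). With the mean of all probe sets the Fosl2 steps at 4 w and 13 w were 0.23 and 0.26 and not called (adjusted p = 0.239 and 0.13). With only the 2 groups in the fit all 3 lost the call (adjusted p = 0.0854, 0.0814 and 0.0816). The 4 w step also lost it with median centring, the RNA integrity covariate or the time alone in the fit (adjusted p = 0.0606, 0.0906 and 0.0988). Those of Fosl2 were lost at 4 w without animals 331, 333, 336, 365, 368 or 369 (0.36 to 0.45) and at 13 w without animals 346, 348 or 379 (0.34 to 0.41). Jund passed as lower without animal 333 at 4 w (-0.22, adjusted p = 0.0405) and without animal 375 at 13 w (-0.23, adjusted p = 0.0117). At 13 w Jund also passed with median centring (-0.20, adjusted p = 0.0278) and array weights (-0.21, 0.00553).

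The change of Fosl1 at 15 ppm did not differ between 13 w and 5 d beyond its error, with a difference of -0.07 (95% interval -0.66 to 0.52, adjusted p = 0.929). At 6 ppm the difference was 0.02 (95% interval -0.57 to 0.61), and at 10 ppm 0.40 (95% interval -0.19 to 0.99). Against 0.7 ppm, the 15 ppm change differed by 0.26 between 4 w and 5 d (95% interval -0.33 to 0.85) and by -0.08 between 13 w and 4 w (95% interval -0.67 to 0.51). None of these was called, and the intervals still allow differences of up to about 1 unit between the times at 10 ppm. In these 5 tests of a changed response 0, 0, 1, 0 and 0 members were called (0%, 0.00703%, 15.3%, 3.45% and 0.0633% of all genes), and 0, 1, 1, 0 and 0 members had an unadjusted p under 0.05. The 1 call was Fosl2 at 15 ppm, given with that gene.

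RNA quality differed between the groups as well. The RNA integrity number of the labels averaged 7.68 at 0 ppm and 8.32 at 15 ppm of 5 d, 7.57 and 8.90 at 13 w, and 8.20 and 8.72 at 0.7 and 15 ppm of 4 w. The difference between the 3' and 5' actin probe sets was 1.71 and 2.47 at 0 and 15 ppm of 5 d, but 1.58 and 1.71 at 13 w. With the integrity number as a covariate, on the 63 arrays that have one, Fosl1 changed by 3.24, 3.22 and 3.05 at 15 ppm of 5 d, 4 w and 13 w. With the actin difference as a covariate, it changed by 3.24, 3.29 and 3.24.

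The genes whose 17 group means were most like those of Fosl1, among 2426 genes with means spanning at least 1 unit, were Areg, Gnl3, C9h6orf141, Nop58 and Lyar. Pearson r over the group means was 0.995, 0.994, 0.991, 0.991 and 0.990. Areg encodes amphiregulin, a ligand of the EGF receptor, and its group means spanned 5.45 units, from 5.20 to 10.6. Gnl3 and Nop58 encode nucleolar proteins. The points share animals and dose, so these values describe likeness only.

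Fosl2, a Fos protein without a strong activation domain, had low signals at 0 ppm of 5 d, namely 6.28, 6.52, 6.28 and 6.15. The 15 ppm animals had 7.78, 7.17, 7.09 and 7.41, all above every unexposed animal, a change of 1.06 ± 0.13 (adjusted p = 5.43e-09). At 10 ppm the signals of 6.41, 6.51, 7.10 and 6.64 overlapped the reference, and the difference of 0.36 ± 0.13 was not called (adjusted p = 0.0618). It was called without animal 207 (0.43, adjusted p = 0.0374) or animal 324 (0.44, adjusted p = 0.0247). At 10 ppm of 4 w Fosl2 differed by 0.30 ± 0.13 and was called without animal 243 (0.43, adjusted p = 0.0279). At 15 ppm of 4 w the signals were 6.87, 7.16, 7.12 and 6.99 against 6.21, 6.72, 6.08 and 6.21 at 0.7 ppm, again without overlap (0.73 ± 0.13, adjusted p = 1.45e-05). At 13 w they were 6.83, 6.73, 6.70 and 6.93 against 6.47, 6.38, 6.50 and 6.41, a smaller change without overlap of 0.36 ± 0.13 (adjusted p = 0.0258). The 13 w call was lost when animals 226, 230 or 379 were left out (0.34, 0.35 and 0.31, adjusted p = 0.0592, 0.0514 and 0.0811).

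The difference between the 13 w and 5 d changes of Fosl2 was itself called, at -0.70 ± 0.19 (adjusted p = 0.00725), and 6.09% of all genes were called lower in that test. Leaving out any of the 16 animals kept it between -0.79 and -0.56 (adjusted p from 0.00269 to 0.0382). The second probe set of Fosl2, with a mean signal of 5.77, differed by 0.33, 0.15 and -0.09 at 15 ppm of 5 d, 4 w and 13 w and was not called. With the mean of both probe sets the 13 w difference of Fosl2 was 0.13 (adjusted p = 0.365), and with the RNA integrity number as a covariate 0.31 (adjusted p = 0.211). That covariate was fitted on the 63 arrays with such a number. The same arrays without the covariate, a setting chosen after seeing the data, gave 0.36 without a call (adjusted p = 0.067 in limma). The nearest group means among other genes were those of Ebi3, Il1r2 and Acot7 (r = 0.951, 0.950 and 0.950), of which Ebi3 encodes a cytokine subunit and Il1r2 the decoy receptor of interleukin-1.

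The group means of the neutrophil markers, like those of Fosl2, were highest at 15 ppm of 5 d. Il1r2, named above among the genes nearest to Fosl2, is itself 1 of these markers. All 6 measured neutrophil markers were called higher at 15 ppm of 5 d (median change 3.37), 5 at 4 w (2.38) and 2 at 13 w (0.57). The mean of the list lay between 9.64 and 10.1 in the 15 ppm animals of 5 d and between 6.65 and 7.69 at 0 ppm. At 13 w it was 7.01 to 8.02 at 15 ppm and 6.29 to 7.40 at 0 ppm. Macrophage and T and NK cell lists were highest at 15 ppm of 5 d as well. The macrophage list averaged 9.4 at 15 ppm and 8.4 at 0 ppm of 5 d, but 7.7 and 8.1 at 13 w. For the T and NK cell list these means were 7.4 and 6.1 at 5 d, and 6.0 and 6.2 at 13 w. Of 8 general leukocyte markers 7 were higher at 15 ppm of 5 d, 5 higher and 1 lower at 4 w, and 0 higher and 2 lower at 13 w. Beside the counts of neutrophil and general leukocyte markers, limma called 18.3%, 21.3% and 23.5% of all genes higher at these times. It called 19.5%, 16.1% and 20.6% lower. The 13 w counts of 2 higher in 6 and 2 lower in 8 are near these shares. Within groups, the deviations of Fosl2 from the group mean had a Pearson r of 0.119 with those of the neutrophil list and 0.102 with those of the leukocyte list (68 arrays, adjusted permutation p = 0.685 and 0.747). The part of these cells in the Fosl2 signal was not tested. In such bulk samples, a change in the share of a cell type and a change in RNA per cell cannot be told apart. At 6 ppm, where Fosl1 had risen, limma called 0 of the 6 neutrophil markers at 5 d, 4 w or 13 w, and 0 had an unadjusted p under 0.05. Of all genes 8.83%, 3.28% and 12.2% were called at 6 ppm, and 0 of 6 is near these shares. Deviations of Fosl1 within groups had a Pearson r of 0.246 with those of the neutrophil list (adjusted permutation p = 0.168), and 0.325 without the 2 farthest arrays. Spearman rho was 0.246 (adjusted permutation p = 0.216). The part of neutrophils in the Fosl1 signal was not tested.

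**Figure D3:**
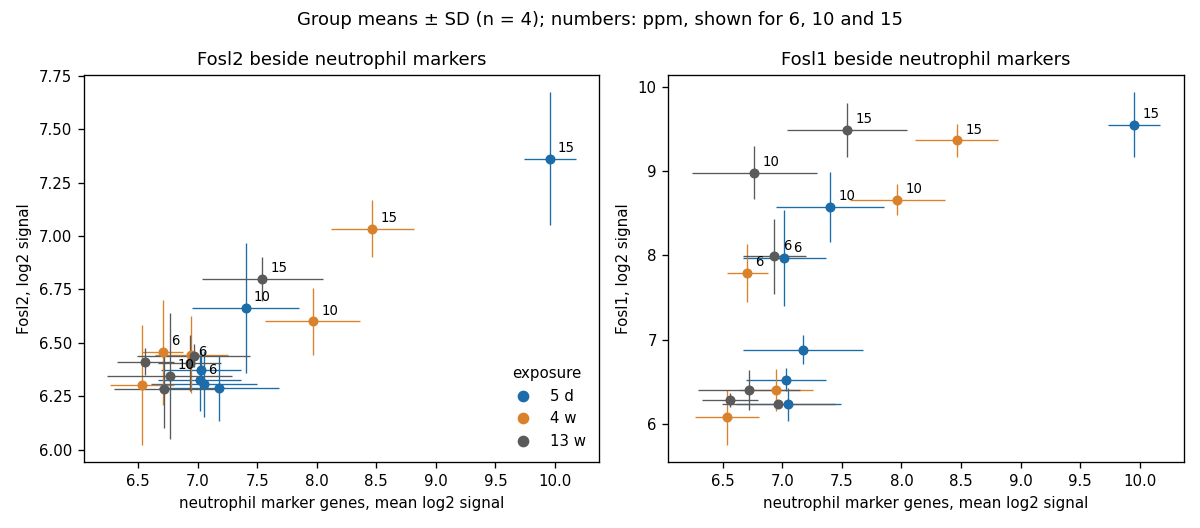
Group means ± SD (n = 4 animals) of Fosl2 (left) and Fosl1 (right) in log2 units on the y axes, against the mean log2 signal of 6 neutrophil marker genes on the x axes. Colours are 5 d, 4 w and 13 w, and numbers give the dose in ppm for 6, 10 and 15. The 15 ppm group of 5 d is highest for Fosl2, for Fosl1 and for the markers. At 6 ppm Fosl1 is above its low-dose level, with markers near 7.

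Fosb, whose transcript also yields a truncated, stable protein in brain, had 7.98, 8.68, 8.07 and 8.27 at 0 ppm of 5 d. The 15 ppm animals had 9.35, 8.95, 8.76 and 8.86, which lay above the reference by a small margin (0.73 ± 0.30, adjusted p = 0.0444). This call was lost when any of the animals 204, 208, 210, 354, 356 and 359 was left out (0.61 to 0.77, adjusted p up to 0.143) and with 0.7 ppm as the reference (0.33, adjusted p = 0.422). At 4 w the 15 ppm signals were 8.58, 8.80, 9.37 and 9.18, against 8.13, 8.53, 8.27 and 7.91 at 0.7 ppm. The groups were just separate (0.77 ± 0.30, adjusted p = 0.0339), and leaving out animals 242, 245, 250, 368 or 369 ended the call (0.64 to 0.79, adjusted p up to 0.117), as did a fit of the 4 w arrays alone (0.77, adjusted p = 0.118).

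At 13 w the gap of Fosb was wider, with 9.76, 9.70, 8.95 and 9.24 at 15 ppm against 8.62, 8.46, 7.99 and 8.43 at 0 ppm (1.04 ± 0.30, adjusted p = 0.00304). The 10 ppm animals of 13 w, at 8.79, 8.17, 7.96 and 8.55, lay below the 15 ppm animals, and that step was called (1.04 ± 0.30, adjusted p = 0.013). The step was not called without animal 348 (0.91, adjusted p = 0.0638). No difference in the 15 ppm change of Fosb between times was called (0.30 for 13 w against 5 d, adjusted p = 0.71). The nearest group means were those of Sdcbp2, Lama3 and Glrx, with r = 0.859, 0.851 and 0.847. Lama3 encodes a laminin chain of the epithelial basement membrane.

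Fos, the founding partner of Jun in AP-1, had 12.53, 13.13, 12.74 and 12.70 in the unexposed rats of 5 d and 13.24, 13.10, 12.61 and 13.08 in those of 13 w. The 15 ppm rats of 5 d had 13.25, 13.09, 12.89 and 13.04, those of 13 w 13.42, 13.12, 12.48 and 12.90, overlapping the reference at both times. The differences were 0.29 (95% interval -0.12 to 0.70), 0.00 at 4 w (-0.41 to 0.41) and -0.03 at 13 w (-0.44 to 0.38). The intervals leave room for changes of up to about 0.7 units after 5 d. Group means of Fos spanned 0.56 units over the 17 groups, from 12.6 to 13.2, against a pooled SD of 0.30 between animals, and 0 of 16 neighbouring pairs were separate. Its second probe set had a mean signal of 5.68 and was not called at 15 ppm either. Against 10 ppm of 5 d, Fos was called higher at 15 ppm with the actin covariate (0.58, adjusted p = 0.0437).

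Jun, which forms homodimers as well as pairs with Fos, had 11.92, 12.56, 12.19 and 11.88 at 0 ppm of 5 d and 12.75, 12.50, 12.31 and 12.08 at 15 ppm. The groups overlapped, and the differences at 15 ppm were 0.27 (95% interval -0.08 to 0.62) at 5 d, 0.30 (-0.06 to 0.65) at 4 w and 0.24 (-0.11 to 0.59) at 13 w, none of them called. With the actin difference as a covariate the 5 d difference was 0.54 and called (adjusted p = 0.027), and at 4 w it was called without animal 243 (0.46, adjusted p = 0.046). The other 2 probe sets of Jun, with mean signals of 10.6 and 9.55, gave 0.17 and 0.22 at 15 ppm of 5 d and were not called.

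Junb, a Jun protein that in cultured cells often counters Jun, had 9.76, 10.03, 9.85 and 9.85 at 0 ppm of 5 d and 10.77, 10.53, 9.95 and 10.39 at 15 ppm. The exposed animals were higher but for 1 that lay within the reference range (0.54 ± 0.14, adjusted p = 0.00102). At 4 w the 15 ppm signals of 10.10, 10.26, 10.49 and 10.55 overlapped the reference of 9.96, 10.13, 9.96 and 9.83, with a called change of 0.38 ± 0.14 (adjusted p = 0.0212). That call was lost without animals 250, 368 or 369 (0.34, 0.33 and 0.32, adjusted p up to 0.0935). At 13 w the difference of 0.29 ± 0.14 was not called (adjusted p = 0.0825) but was without animal 225 (0.37, adjusted p = 0.0353). It was also called with 0.7 ppm as the reference (0.62, adjusted p = 1.26e-04) and with the actin covariate (0.32, adjusted p = 0.0366). Against 10 ppm, Junb rose by 0.52 ± 0.14 at 5 d and 0.54 ± 0.14 at 13 w (adjusted p = 0.00496 and 0.00459). The 5 d step was not called without animal 354 (0.40, adjusted p = 0.0548), with the RNA integrity covariate (0.43, 0.0509) or with only the 2 groups in the fit (0.52, 0.142). Its nearest group means were those of Zfp36, Grk5 and Dusp5 (r = 0.857, 0.825 and 0.804), where Zfp36 encodes a protein that speeds decay of unstable mRNAs.

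Jund, the Jun gene that is expressed most steadily in resting cells, was the member that moved down. At 13 w the 0 ppm animals had 12.64, 12.47, 12.51 and 12.45, and the 15 ppm animals 12.41, 12.22, 12.06 and 12.18. The 15 ppm animals were all lower, by a small amount (-0.30 ± 0.07, adjusted p = 1.08e-04). At 4 w 12.21, 12.26, 12.34 and 12.04 at 15 ppm lay below 12.44, 12.56, 12.58 and 12.62 at 0.7 ppm (-0.34 ± 0.07, adjusted p = 2.76e-05). At 5 d the 15 ppm animals lay below the reference too, but the difference of -0.15 ± 0.07 was not called (adjusted p = 0.0621). It was called without animal 359 (-0.17, adjusted p = 0.0478). The 5 d difference of Jund was also called with 0.7 ppm as the reference (-0.22, adjusted p = 0.00507), the actin covariate (-0.24, 0.00784), median centring (-0.16, 0.0421) and array weights (-0.15, 0.0426).

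The other 2 probe sets of Jund, with mean signals of 6.07 and 5.12, were not called at 15 ppm, with differences from -0.19 to -0.02. Jund was also the 1 member called between the unexposed animals of 13 w and 5 d (0.24 ± 0.07, adjusted p = 0.0312), where 2.24% of all genes were called. That call was lost when 7 of the 8 animals were left out singly (0.20 to 0.27, adjusted p up to 0.131), namely animals 225, 229, 230, 204, 207, 208 and 210. Jund deviations within groups had a Pearson r of -0.311 with those of the RNA integrity number, which was higher at 15 ppm than in the reference at each time (63 arrays, Spearman rho -0.346, adjusted permutation p = 0.0943 and 0.0715). With the integrity number as a covariate, the 13 w fall at 15 ppm was -0.23 (adjusted p = 0.0359). The nearest group means were those of Sh3bgrl1, Rnft1 and Pdxdc1 (r = 0.923, 0.918 and 0.915).

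Atf3, a stress-induced partner of Jun that often represses its targets, varied widely among unexposed rats of 5 d (SD 0.58) and less at 13 w (SD 0.25). It had 9.08, 10.20, 9.65 and 8.92 at 0 ppm of 5 d and 9.91, 9.99, 9.46 and 9.97 at 13 w. The 15 ppm animals had 11.07, 10.82, 10.52 and 10.59 at 5 d, all above the reference (1.28 ± 0.29, adjusted p = 2.32e-04). At 13 w they had 11.49, 11.28, 10.69 and 10.99, again without overlap (1.28 ± 0.29, adjusted p = 1.80e-04). At 4 w 10.42, 10.39, 11.05 and 10.80 stood above 9.48, 10.16, 9.52 and 8.97 (1.13 ± 0.29, adjusted p = 0.00112). The calls at 15 ppm held when any single animal was left out, with changes of 0.94 to 1.53.

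At 10 ppm Atf3 was called at 4 w (0.85 ± 0.29, adjusted p = 0.0337), with overlapping animals. The call was lost without animals 242, 245, 250, 331, 336 or 338 (0.66 to 0.89, adjusted p up to 0.157). At 10 ppm of 5 d and 13 w Atf3 differed by 0.58 ± 0.29 and 0.69 ± 0.29 without a call, and the latter was called without animal 348 (0.89, adjusted p = 0.0223). It was also called with array weights, the actin covariate, 0.7 ppm as the reference and fewer groups or times in the fit (0.69 to 0.83, adjusted p = 0.0228 to 0.0388). At 6 ppm of 13 w all 4 animals (10.92, 10.73, 10.21 and 10.22) stood above the reference, without a call (0.69 ± 0.29). Array weights and the actin covariate each gave 0.83 and a call (adjusted p = 0.0279 and 0.0439). The 15 ppm change did not differ between 13 w and 5 d beyond its error (-0.01, adjusted p = 0.995). Its nearest group means were those of Rnd3, Phlda1 and Klf6, with r = 0.940, 0.938 and 0.938.

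Egr1 had 10.76, 11.52, 11.07 and 11.12 at 0 ppm of 5 d and 11.53, 11.74, 10.84 and 11.22 at 13 w. At 15 ppm it had 11.83, 11.61, 10.84 and 11.22 at 5 d and 12.32, 11.98, 11.40 and 11.54 at 13 w, overlapping the references. The differences were 0.26 (95% interval -0.24 to 0.75), 0.23 at 4 w (-0.26 to 0.73) and 0.48 at 13 w (-0.02 to 0.97), none called. Group means of Egr1 spanned 0.88 units, with a pooled SD of 0.36. With 0.7 ppm in place of 0 ppm as the reference, Egr1 was called lower at 10 ppm of 5 d (-0.68, adjusted p = 0.0431).

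Fosl1 was singled out among the members after its values were seen, so its change is set beside theirs as a description, with no test. At 15 ppm the log2 change of Fosl1 was larger than that of each other member at each of the 3 times. Probe sets differ in their response, and the part of this in the differences was not tested. At 0 ppm of 5 d and 13 w Fosl1 had means of 6.23 and 6.24, below the array medians of 6.82 to 6.96. Fos had 12.77 and 13.01 there. The difference between the changes, with its SE from the animals, was 2.03 ± 0.30 over Atf3, 2.26 ± 0.27 over Fosl2 and 3.02 ± 0.24 over Fos at 5 d. It was 1.97 ± 0.34, 2.89 ± 0.18 and 3.27 ± 0.37 at 13 w.

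Within groups, 6 of the members varied together from animal to animal, and no pair with Fosl1 passed the test. In the unexposed animals of 5 d, for example, animal 207 had the highest Fos, Fosb, Jun, Junb, Atf3 and Egr1 signals of its group. Over all 68 arrays, with each gene centred on its group mean, Pearson r was 0.848 between Fos and Jun, 0.836 between Fos and Fosb, 0.851 between Fos and Atf3 and 0.884 between Jun and Atf3. Spearman rho was 0.849, 0.873, 0.840 and 0.894. Among Fos, Fosb, Jun, Junb, Atf3 and Egr1, a set put together after the values were seen, r ran from 0.569 to 0.884 and rho from 0.643 to 0.894 over 15 pairs. All 15 had an adjusted p of 2.4e-05 over 36 pairs, with signals permuted within groups, and the unadjusted 1.0e-05 is the smallest that 100000 resamples can give. Without the 2 arrays farthest from the median of the first gene r was 0.583 to 0.878, and within the 5 d, 4 w or 13 w arrays 0.439 to 0.933.

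The 8 pairs of Fosl1 had r from -0.152 to 0.288 and rho from -0.086 to 0.220, with adjusted p of 0.0974 or more for r and 0.19 or more for rho. Without the 2 farthest arrays r was -0.126 to 0.168, and within single times it ranged from -0.296 to 0.508. Pairs with Jund were likewise weak, from -0.152 to 0.244. Fosl2 had r = 0.415 with Junb (rho 0.364, adjusted p = 0.0119 and 0.0203), 0.374 without the 2 farthest arrays and 0.336 to 0.519 within single times.

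The mean of 10 measured heat shock genes, from a list of 13 linked to tissue dissociation, also moved with these deviations. Its Pearson r was 0.719 with Atf3, 0.661 with Jun, 0.621 with Fosb and 0.523 with Fos, and Spearman rho was 0.723, 0.680, 0.585 and 0.511 (68 arrays, adjusted permutation p of 9.0e-04 or less over 45 relations). Without the 2 farthest arrays r was 0.696, 0.642, 0.538 and 0.448. With Fosl1 it was 0.429 (rho 0.387, adjusted p = 0.0256 and 0.0346) and 0.537 without the 2 farthest. The RNA integrity number had r between -0.127 and -0.042 with Fos, Fosb, Jun, Junb, Atf3 and Egr1, none with an adjusted p under 0.05. The difference between the 3' and 5' actin probe sets had r between -0.341 (Junb) and -0.154 (Fosb) with the same genes. For Junb rho was -0.383 (adjusted permutation p = 0.0346, and 0.0746 for r). No other of these genes had an adjusted p under 0.05 with the actin difference. The part of RNA quality in these deviations was not tested. The heat shock list, of which Hspa1b, Hspa8 and Hsp90aa1 were not measured, rose with dose as well. At 15 ppm of 5 d, 4 w and 13 w, 5, 7 and 8 of 10 genes were called higher and 0 lower. Of all genes 18.3%, 21.3% and 23.5% were called higher at these times. The small chaperone Hspb1 rose by 1.35 ± 0.22, 2.04 ± 0.22 and 2.51 ± 0.22. Hspa5 was not called at 4 w or 13 w, nor were Bag3 and Dnajb1 at 5 d. The part of cell release in the signals of the members was not tested.

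**Figure D4:**
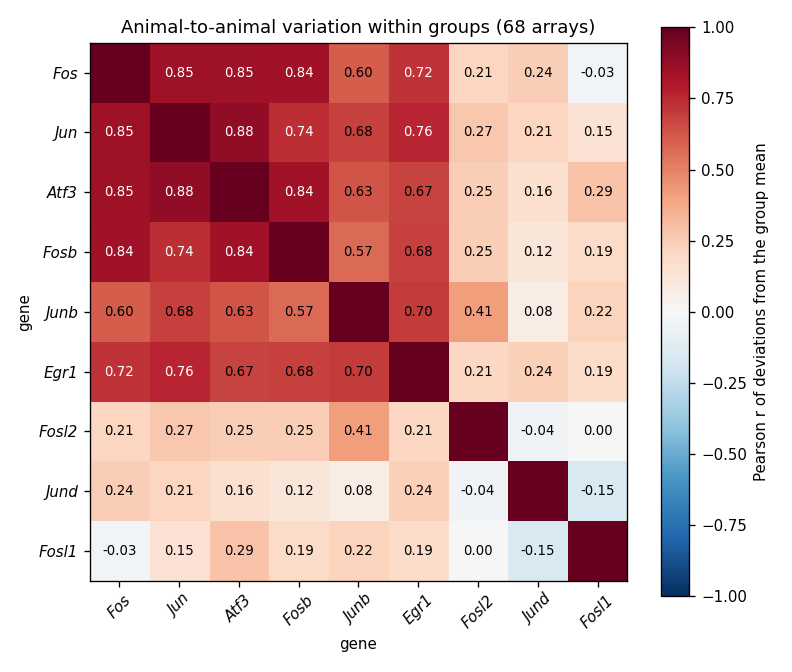
Pearson r between members (rows and columns) of the deviations of the 68 arrays from their group means, on a colour scale from -1 to 1. Fos, Jun, Atf3, Fosb, Junb and Egr1 form a block of values from 0.57 to 0.88, and the row of Fosl1 lies between -0.15 and 0.29.

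Other leucine zipper genes that pair with AP-1 or compete with it were described from a list of 25, of which 23 were measured. At 15 ppm 10 rose and 2 fell after 5 d, 8 and 4 at 4 w, and 7 and 3 at 13 w, with medians of 0.26, 0.02 and 0.07 against -0.01, 0.01 and -0.02 for all genes. Of all genes 37.7%, 37.4% and 44.2% were called there, 18.3%, 21.3% and 23.5% higher and 19.5%, 16.1% and 20.6% lower. The 13 w count of 10 in 23 genes is near that background. Maff, a small Maf protein without an activation domain, rose already at 6 ppm, by 1.28 ± 0.20 at 5 d and 2.08 ± 0.20 at 13 w. It stood at 1.48 ± 0.20 and 2.11 ± 0.20 above the reference at 15 ppm. Cebpa, known for its role in epidermal and myeloid differentiation, rose by 1.00 ± 0.16 at 15 ppm of 5 d and 1.71 ± 0.16 at 13 w. Crem, which encodes activators and repressors of cAMP response elements, rose by 1.97 ± 0.11 at 5 d, 0.76 ± 0.11 at 4 w and 0.27 ± 0.11 at 13 w. Ddit3, a stress factor of the Cebp family, rose by 1.32 ± 0.16, 0.82 ± 0.16 and 0.55 ± 0.16, and Batf, expressed in lymphocytes, fell by 0.70 at 13 w.

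Of 40 other immediate early genes listed, 37 were measured. At 15 ppm 23 rose and 1 fell after 5 d, 20 and 0 at 4 w, and 16 and 1 at 13 w, with medians of 0.58, 0.38 and 0.31 against -0.01, 0.01 and -0.02 for all genes. Of all genes 18.3%, 21.3% and 23.5% were called higher at these times. At 6 ppm 3 rose at 5 d and 7 at 13 w, beside 8.83% and 12.2% of all genes called in either direction, and the 5 d count is near that share. Gadd45b, a growth arrest and stress gene, rose by 1.90 ± 0.15 at 15 ppm of 5 d and 1.24 ± 0.15 at 13 w. Plk2, a polo-like kinase, rose by 1.54 ± 0.15 and 1.81 ± 0.15, and Ier3 by 1.38 ± 0.18 at both times. Myc rose by 1.01 ± 0.18 and 1.29 ± 0.18. Dusp2, a MAP kinase phosphatase prominent in leukocytes, rose by 2.49 ± 0.23 at 5 d and 1.58 ± 0.23 at 4 w, and differed by 0.35 ± 0.23 at 13 w without a call (adjusted p = 0.224).

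Upstream, 20 of 34 listed MAP kinase and serum response genes were measured, and 6 rose and 4 fell at 15 ppm of 5 d, 7 and 3 at 4 w, and 7 and 5 at 13 w. The list medians were -0.09, 0.09 and 0.11, against -0.01, 0.01 and -0.02 for all genes. Beside these counts, 37.7%, 37.4% and 44.2% of all genes were called. Map3k8, a kinase upstream of ERK, rose by 2.08 ± 0.21 and 1.40 ± 0.21 at 15 ppm of 5 d and 13 w. Map2k6, an activator of p38, fell by 1.05 and 0.93, and already at 6 ppm by 0.58 and 0.42. Elk3, an ETS cofactor of serum response factor, rose by 0.88 ± 0.16 and 1.05 ± 0.16, and the p38 family kinase gene Mapk12 fell by 0.61 and 0.98.

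Of 36 genes listed as textbook AP-1 targets 30 were measured. At 15 ppm 21 rose and 1 fell after 5 d, 20 and 0 at 4 w, and 17 and 1 at 13 w, with medians of 1.12, 1.09 and 0.66 against -0.01, 0.01 and -0.02 for all genes. The shares of all genes called higher were 18.3%, 21.3% and 23.5%. At 6 ppm 9 rose and 1 fell at 5 d, and 10 and 0 at 13 w, beside 8.83% and 12.2% of all genes called. Plaur, the urokinase receptor, rose by 4.17 ± 0.27 at 15 ppm of 5 d and 3.04 ± 0.27 at 13 w. Sprr1b, a cornified envelope precursor, rose by 5.50 ± 0.40 and 6.20 ± 0.40, and Areg by 4.86 ± 0.32 and 5.43 ± 0.32. Hbegf, another EGF receptor ligand, rose by 2.30 ± 0.18 and 2.14 ± 0.18.

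For Ivl and Mmp3 the changes at the 3 times stood in opposite order. Ivl, which encodes involucrin of the cornified envelope, rose by 0.78 ± 0.28 at 15 ppm of 5 d, 1.64 ± 0.28 at 4 w and 3.04 ± 0.28 at 13 w. Mmp3, a matrix metalloproteinase of stromal and inflamed tissue, rose by 5.26 ± 0.39 at 5 d and 3.54 ± 0.39 at 4 w, and differed by 0.57 ± 0.39 at 13 w without a call (adjusted p = 0.25). The differences between these times were not tested for the 2 genes here. These lists were drawn up with earlier results of these data known, and regulation by AP-1 was not measured.

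The tissue label was checked against marker lists. The mean of the basal epithelial markers lay between 11.1 and 12.6 over single arrays and that of the columnar markers between 11.9 and 12.5, and of 8 basal markers 5 were higher and 2 lower at 15 ppm of 5 d, 6 and 0 at 4 w, and 8 and 0 at 13 w. Markers of olfactory neurons had list means from 7.97 to 11.9 over single arrays, although the olfactory lining was set aside, and fibroblast markers from 9.16 to 11.8. At 15 ppm limma called 0 of 7 olfactory markers at each of the 3 times, and 0 had an unadjusted p under 0.05, while 5 of 5 ciliated cell markers and 4 of 7 secretory cell markers were lower at 15 ppm of 13 w. Of 8 fibroblast markers 4 were lower and 1 higher there. Beside these counts, 18.3%, 21.3% and 23.5% of all genes were called higher at 15 ppm of 5 d, 4 w and 13 w, and 19.5%, 16.1% and 20.6% lower. The part of these cell types in the changes of the members was not tested.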

How the data were processed

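Affymetrix Rat230_2 arrays of 68 rats were analysed, 1 per animal, in 17 groups of 4. The deposited values are log2 signals of 31099 probe sets, made by the authors with GCOS 1.0 and RMA, per the submitters' processing notes. Array medians lay between 6.82 and 6.96, and within-group correlations over probe sets between 0.977 and 0.996. The number of arrays limits precision. Of the probe sets, 20826 have 1 gene name, 436 several, 9780 none and 57 are controls. The 20826 gave 14217 genes, of which 4525 had several probe sets and took the one with the highest mean.

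All genes entered a linear model with a mean for each group, without a filter, in limma 3.58.1 (R 4.3.3). The model (lmFit, eBayes) had 51 residual and 2.85 prior degrees of freedom and a median SE of 0.104. Adjusted p-values are Benjamini-Hochberg values over all genes, and genes were called under 0.05. The p-values set each difference against the spread between these animals within groups. Correlations and permutation tests used Python 3.11.15, numpy 2.4.6, pandas 2.3.3 and scipy 1.17.1, and figures matplotlib 3.10.9. The fit was tested on simulated data.

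The members and gene lists were chosen with earlier results of these data known. All members are named. From each other gene list up to 6 genes were eligible by smallest adjusted p at 15 ppm of 5 d and up to 6 at 13 w. For likeness, the 5 genes nearest to Fosl1 and the 3 nearest to each other member called at 15 ppm against 0 ppm were taken. Groups follow the titles; at 4 w, 1 treatment field gives another duration for 19 samples and was not followed. The alternatives were median centring, cyclic loess, a filter on low signals, the mean of probe sets, fewer arrays in the fit, trend and robust eBayes, array weights, RNA integrity or actin covariates, another reference dose and leaving out each animal.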

Additional observations from a re-analysis of the deposited data

Results flagged for a closer look

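In 8 of 153 combinations of member and group, 1 animal lay far from the other 3, and chance alone gives about 1 in 20. Fosb was 10.03 in animal 310 at 6 ppm of 4 w, against 8.11 to 8.40 in the others, and 9.31 in animal 316 at 6 ppm of 13 w, against 8.64 to 8.74. Fosl2 was 6.82 in the same animal 310, against 6.30 to 6.38. Fosl1 was 9.01 in animal 375 at 15 ppm of 13 w, against 9.61 to 9.66. Junb was 10.33 in animal 276 at 2 ppm of 4 w, against 10.16 to 10.18. Atf3 was low in 3 animals, at 8.93 in animal 295 at 6 ppm of 5 d (others 10.16 to 10.28), 9.69 in animal 324 at 10 ppm of 5 d (10.13 to 10.19) and 9.46 in animal 229 at 0 ppm of 13 w (9.91 to 9.99).

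The 15 ppm change of Fosl2 differed between the times, by -0.70 log2 units at 13 w relative to 5 d in the interaction test in limma (adjusted p = 0.00725).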

How the results depend on the processing

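Over all member values and comparisons, 0 reversed. Under settings other than leaving out an animal, 2620 of 2673 values kept direction and side of the threshold, 26 lost a call and 27 gained one. Leaving out 1 animal, 2169 of 2232 did, 50 lost a call and 13 gained one. The cause of the changes below was not tested. At 15 ppm the number of members called lay between 5 and 7 at 5 d, 5 and 6 at 4 w, and 4 and 6 at 13 w over these settings (5, 6 and 5 as reported), none of them a move of more than 1.5 times. Numbers that moved by more than 1.5 times are these. At 10 ppm of 5 d the number was 1 and became 2 with cyclic loess, the actin covariate, 0.7 ppm as reference and, a setting chosen after seeing the data, on the arrays with an RNA integrity number. At 6 ppm of 13 w it went from 1 to 2 with array weights and with the actin covariate. At 10 ppm of 13 w it went from 1 to 2 with those settings, with 0.7 ppm as reference and with fewer groups or times in the fit. At 10 ppm of 4 w it went from 2 to 4 with array weights and to 1 with fewer groups or times. From 6 to 10 ppm it went at 5 d from 0 to 1 with array weights, at 4 w from 1 to 0 with median centring, cyclic loess and fewer groups, and at 13 w from 1 to 0 with fewer groups. From 10 to 15 ppm of 5 d it went from 3 to 5 with the actin covariate and to 1 with fewer groups. From 10 to 15 ppm of 4 w it went from 2 to 1 with median centring, the mean of probe sets, the RNA integrity covariate and fewer times, and to 0 with fewer groups. From 10 to 15 ppm of 13 w it went from 3 to 5 with array weights. Between the unexposed groups it went from 1 to 0 with cyclic loess, the mean of probe sets and fewer groups.

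Leaving out each animal in turn gave 4 to 5, 4 to 7 and 4 to 6 members at 15 ppm of 5 d, 4 w and 13 w, and 1 to 2, 1 to 3 and 1 to 2 at 10 ppm. It gave 1 at 6 ppm and 0 at 2 ppm at each time. From 6 to 10 ppm it gave 0 to 1, 0 to 1 and 1, from 10 to 15 ppm 2 to 3, 0 to 2 and 1 to 5, and between the unexposed groups 0 to 1. The response at 15 ppm of 13 w against 5 d stayed at 1 member. No paired analysis was possible because animal numbers are unique and shared by no groups. Fosb, Fosl1, Junb, Atf3 and Egr1 have 1 probe set each and no second probe set to compare.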

Other observations

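Different sets of genes stood nearest to the members from animal to animal within groups, among 14208 genes ranked after the values were seen. The deviations of Fos were most like those of Nr4a1, Ccn1, Ier2, Gadd45g and Dusp1, with Pearson r of 0.801, 0.757, 0.735, 0.665 and 0.663 over 68 arrays. Nr4a1 is a nuclear receptor gene, Ccn1 encodes a secreted matrix protein and Dusp1 a MAP kinase phosphatase, and all 5 are known as fast-response genes. The deviations of Fosl1 were most like those of Nop56, Pprc1, Tnfrsf12a, Areg and Hmox1, with r of 0.803, 0.780, 0.777, 0.772 and 0.765. Nop56 encodes a nucleolar protein, Tnfrsf12a the TWEAK receptor and Hmox1 the heme-degrading enzyme heme oxygenase. The arrays share labelling and scanning, and these values are descriptions without a test.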
